A study of Mus musculus with 20 samples.

Results

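Schwann cell and perivascular nerve genes were followed in the abdominal aorta of C57BL/6 mice, namely 3 genes of the myelin sheath (Mbp, Pmp22 and Prx), 2 genes that mark Schwann cells (Sox10 and S100b) and 3 genes of sympathetic nerve (Th, Dbh and Npy). They were chosen by name, with no threshold on measured values, and are 8 of 42890 genes to which the transcripts of the table could be assigned. All 8 were among the 15010 genes with at least 1 FPKM (fragments or reads per kilobase of transcript and per library size) in at least 5 libraries, which were tested. The 20 libraries came from 5 mice each of Rab22a knockout with AngII (angiotensin II, 500 ng/kg/min), knockout with saline, wild type with AngII and wild type with saline, all treated for 14 days. Rab22a encodes a small GTPase of endosomal traffic, and the title of the series asks about hypertension and vascular dysfunction in its absence. The kind of knockout allele, the age and the sex of the mice were not used here, and the labels do not say how closely the adventitia and the nerves around the vessel were trimmed.

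The aorta is reached by sympathetic nerves whose axons run in the adventitia and the fat around it. Sympathetic neurons make noradrenaline from tyrosine by tyrosine hydroxylase (Th), aromatic amino acid decarboxylase (Ddc) and dopamine beta-hydroxylase (Dbh), and many vasoconstrictor neurons release neuropeptide Y (Npy) along with it. Their cell bodies lie in ganglia, and messenger RNA is most abundant there, while most of the axons that enter a vessel wall are thin and unmyelinated. Schwann cells wrap axons. Those on large axons form myelin with proteins such as myelin basic protein (Mbp), peripheral myelin protein 22 (Pmp22) and periaxin (Prx), those on thin axons do not, and both kinds depend on the transcription factor Sox10.

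The table implied between 68700000 and 77000000 reads per library, of which 57800000 to 65200000 lay in transcripts assigned to a gene. The main protein-coding Rab22a transcript stood at no more than 0.00563 FPKM in knockout libraries and at 1.87 to 8.62 FPKM in wild type libraries. In knockout AngII replicates 2 and 4 the sympathetic genes stood far below the other 18 libraries. These libraries were singled out after their values were seen, and results that rest on them are given with and without them. Leaving them out raises the knockout AngII values by construction.

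In wild type aortas AngII and saline differed by at most 0.26 on the log2 scale for any of the 8 genes. All but S100b spread most widely, by the SD of their FPKM, among the knockout AngII aortas. None of the 8 passed in AngII against saline in wild type, where 0% of all genes tested were called (limma, Benjamini-Hochberg adjusted p under 0.05), nor in AngII against saline in knockout, where the share was also 0%. None passed in knockout against wild type under saline, with 0.0133% of genes called, or under AngII, with 1.83% called. None passed in the interaction of genotype and treatment, with 0% called. At an unadjusted p under 0.05, limma gave 458, 595 and 501 genes in the 3 comparisons without a call (wild type, knockout, interaction), and voom weights on recovered reads gave 0 calls in each of them as well. In 0 of 32 comparisons of a member between 2 groups did the groups lie apart, where 0.613%, 0.426%, 1.28% and 5.21% of all genes did so in those 4 comparisons. The smallest of the 32 exact permutation p-values was 0.0556, against a smallest possible value of 0.00794 for 5 against 5 libraries.

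**Figure D1:**
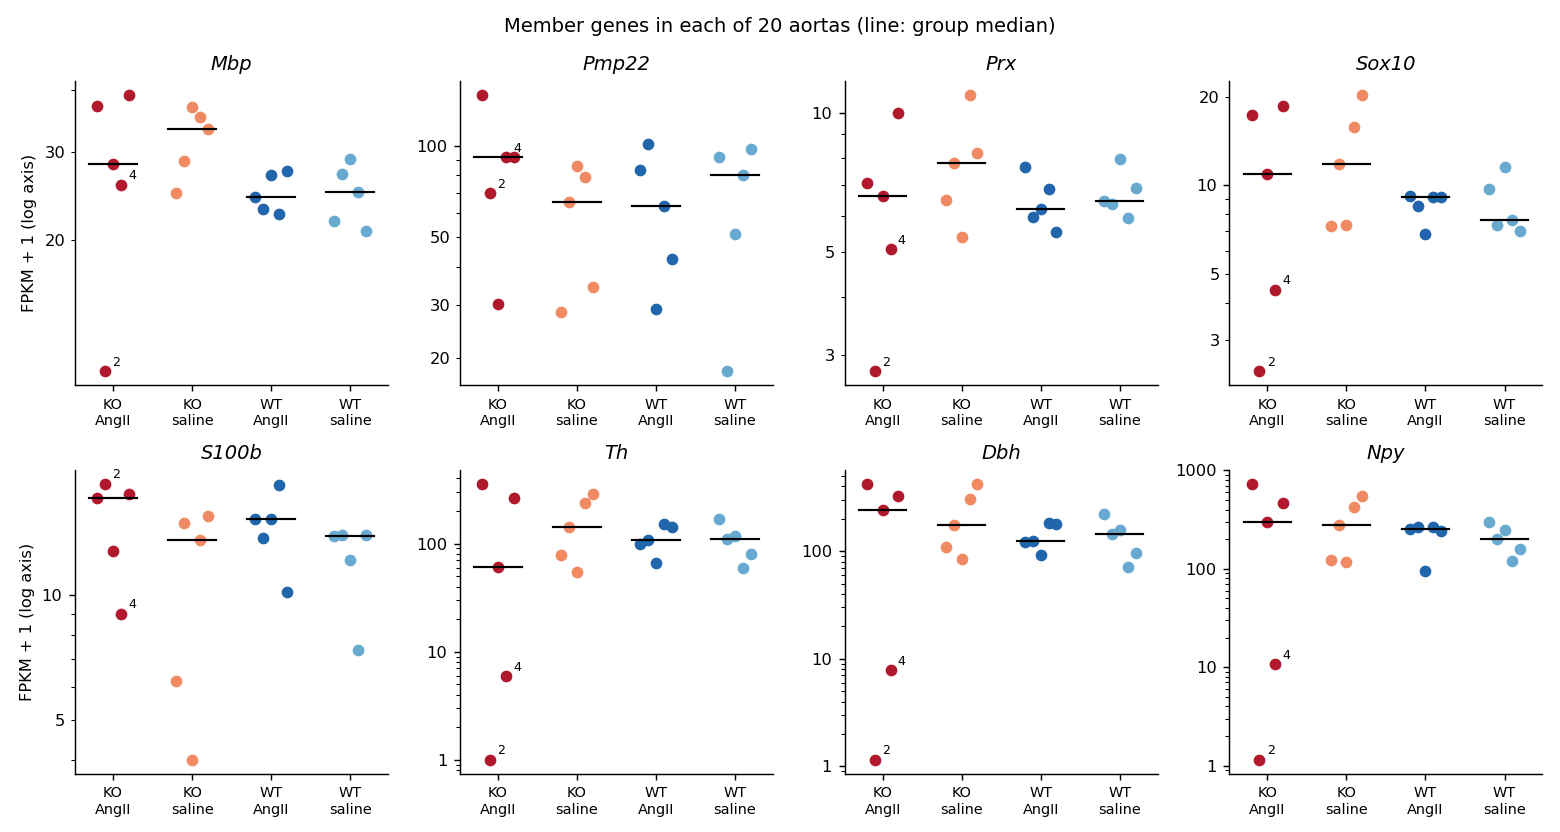
FPKM + 1 of each gene (log axis) in the 5 libraries of each group, with a line at the group median and the numbers of knockout AngII replicates 2 and 4. Replicate 2 lies lowest for Mbp, Prx, Sox10, Th, Dbh and Npy, at 0 FPKM for Th, and highest for S100b at 17.5 FPKM.

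Of the myelin genes, Mbp (ENSMUSG00000041607, mm10 chr18:82475146-82585637, plus strand) encodes the protein that compacts the cytoplasmic faces of myelin. It stood at 36.2, 9.88, 27.4, 24.8 and 38.2 FPKM in knockout AngII aortas and at 23.9, 27.8, 36.0, 34.4 and 32.5 FPKM in knockout saline aortas. It stood at 23.4, 22.1, 26.1, 21.6 and 26.6 FPKM in wild type AngII aortas and at 20.8, 26.1, 28.1, 23.9 and 19.9 FPKM in wild type saline aortas. The 4 groups overlap, with knockout AngII replicate 2 the lowest of all 20 and 5 other knockout libraries above every wild type library. The means under saline were 30.9 ± 5.0 FPKM in knockout and 23.8 ± 3.48 FPKM in wild type aortas (SD, n = 5 each), a log2 difference of 0.36 ± 0.25 (SE) with a limma adjusted p of 0.809 and an exact permutation p of 0.0556, two-sided. Under AngII they were 27.3 ± 11.3 FPKM in knockout and 23.9 ± 2.28 FPKM in wild type aortas (SD, n = 5 each), a log2 difference of 0.06 ± 0.25. That difference was, without knockout AngII replicates 2 and 4, 0.48 ± 0.15, with an adjusted p of 0.0941 in limma.

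Prx (ENSMUSG00000053198, chr7:27499324-27520214, plus strand) encodes periaxin, a scaffold that links the Schwann cell membrane to its cytoskeleton. It had the lowest mean of the 8 genes over the 20 libraries. It stood at 6.06, 1.76, 5.62, 4.08 and 9.02 FPKM in knockout AngII, 5.50, 6.79, 4.41, 9.97 and 7.21 FPKM in knockout saline, 6.64, 4.95, 5.19, 5.85 and 4.53 FPKM in wild type AngII and 5.45, 5.36, 6.96, 4.92 and 5.89 FPKM in wild type saline aortas. The wild type values span 1.54-fold, and the 3 highest and the 3 lowest values are all in knockout libraries. The log2 difference of AngII against saline in knockout aortas was -0.38 ± 0.26, and 0.04 without knockout AngII replicates 2 and 4.

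Pmp22 (ENSMUSG00000018217, chr11:63128982-63159547, plus strand) encodes a tetraspan protein of compact myelin that fibroblasts and other cells also make. It stood at 146, 69.0, 29.1, 90.7 and 91.1 FPKM in knockout AngII, 27.3, 64.3, 85.0, 77.8 and 33.3 FPKM in knockout saline, 82.5, 100.3, 27.98, 62.6 and 41.5 FPKM in wild type AngII and 90.6, 17.1, 50.3, 79.0 and 96.4 FPKM in wild type saline aortas. High and low libraries occur in every group, over an 8.53-fold range, and knockout AngII replicate 2 is not among the lowest. The means in knockout aortas were 85.2 ± 42.4 FPKM under AngII and 57.6 ± 26.0 FPKM under saline (SD, n = 5 each), a log2 difference of 0.52 ± 0.50 with a limma adjusted p of 0.991.

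Cnp, an enzyme of myelinating cells that other cells also make, and not one of the 8 genes, stood at 48.7, 8.64, 40.6, 41.0 and 49.5 FPKM in knockout AngII aortas. It was lowest of the 20 libraries in knockout AngII replicate 2 and lay between 26.1 and 79.7 FPKM in the other libraries. Of 17 markers of myelinating Schwann cells 15 were tested and 0 were called in any comparison. Their median log2 difference was 0.25 for knockout against wild type under saline, with 13 of 15 higher, against a median of -0.04 over all genes tested. Under AngII it was -0.08, with 7 of 15 higher, against -0.10 over all genes. For AngII against saline it was -0.27 in knockout aortas, against -0.06 over all genes, and 0.05 in wild type aortas, against 0.02 over all genes. The medians turned to 0.33 for knockout against wild type under AngII and to 0.20 for AngII against saline in knockout without knockout AngII replicates 2 and 4, against -0.07 and -0.01 over all genes.

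Both Mbp and Pmp22 are read from more than 1 start, and their transcripts did not move together. At Mbp, 3 annotated transcripts begin at an upstream start, 79.3 kilobases before the others. They are known as golli transcripts, and cells of the immune system and neurons also use them, while 12 transcripts begin downstream, where the classic myelin proteins start. The most abundant was Mbp-205 from the upstream start, at a mean of 9.06 FPKM, followed by Mbp-211 at 7.88 FPKM. The downstream sum was 26.9, 1.52, 14.5, 11.0 and 29.3 FPKM in knockout AngII, 10.6, 20.04, 16.1, 25.5 and 23.9 FPKM in knockout saline, 16.2, 13.1, 13.0, 12.2 and 11.9 FPKM in wild type AngII and 9.41, 15.1, 14.0, 10.8 and 12.7 FPKM in wild type saline aortas. Knockout AngII replicate 2 thus lay far below every other library in the myelin transcripts of the gene, the next lowest being 9.41 FPKM. Its upstream sum of 8.36 FPKM lay inside the range of the other libraries, 7.12 to 19.8 FPKM.

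The upstream start gave 84.6% of Mbp in knockout AngII replicate 2 and 23.2% to 55.5% in the other 19 libraries. Under saline the downstream sum averaged 19.3 ± 6.05 FPKM in knockout and 12.4 ± 2.31 FPKM in wild type aortas (SD, n = 5 each), a log2 difference of 0.56 with an exact permutation p of 0.0635. The upstream sum was 11.6 ± 5.05 FPKM in knockout and 11.4 ± 2.65 FPKM in wild type aortas (SD, n = 5 each; exact permutation p = 0.96). Over the 18 libraries without knockout AngII replicates 2 and 4, the downstream sum went with the level of the markers of myelinating Schwann cells (Pearson r = 0.82, permutation p = 4e-05, adjusted 0.000427; Spearman rho = 0.70, permutation p = 0.00152, adjusted 0.0106). The genes followed here were left out of the level of every list, so Mbp itself was not part of it. For the upstream sum r was -0.26 (permutation p = 0.296) and rho -0.30. It went with the level of 7 B and T cell markers, such as Cd79a and Cd3g (r = 0.66, permutation p = 0.00218, adjusted 0.00872; rho = 0.79, permutation p = 0.00015, adjusted 0.0018). It ran against the level of adipocyte markers (r = -0.78, permutation p = 0.0002, adjusted 0.00137; rho = -0.66). The adjustment was over 96 relations, and the 2 correlations of the upstream sum with lymphocyte and fat markers were picked after all were seen.

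**Figure D2:**
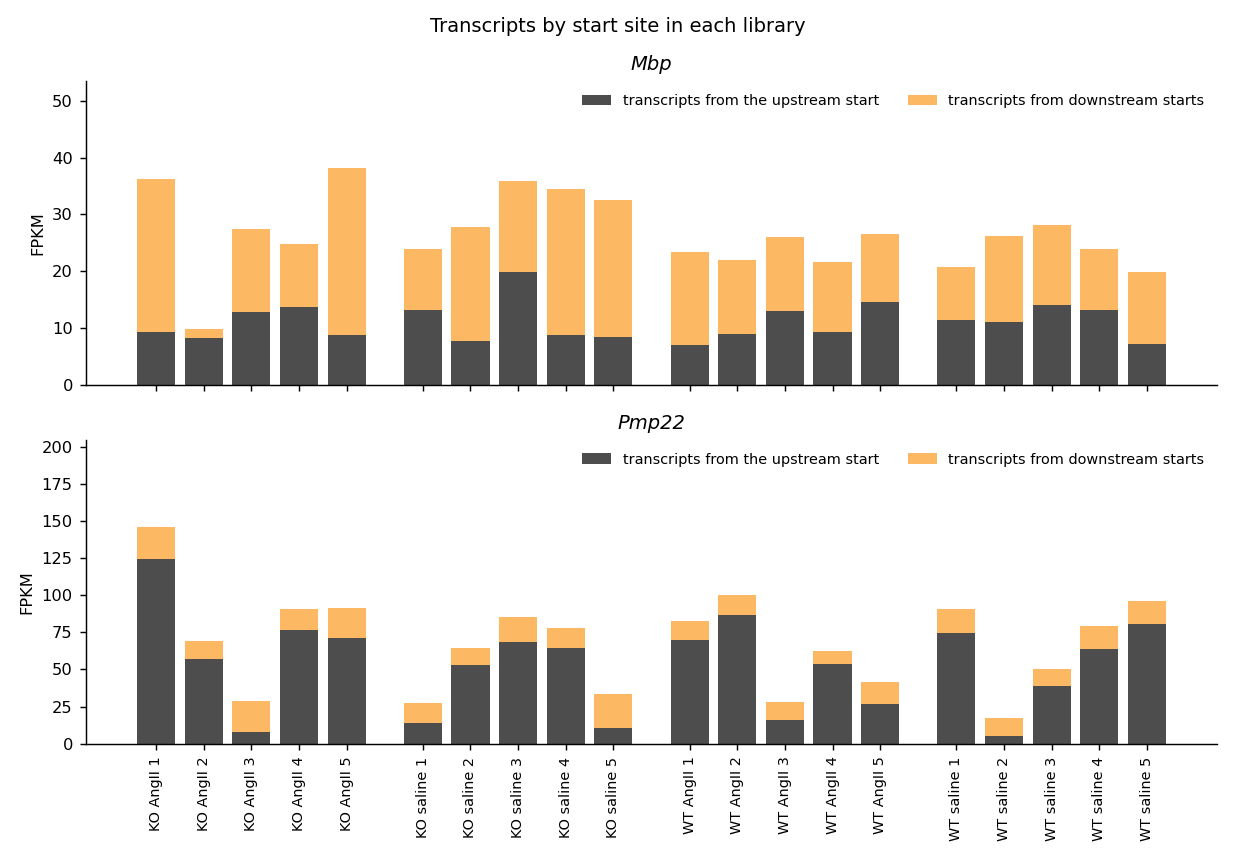
FPKM of Mbp (top) and Pmp22 (bottom) in each of the 20 libraries, split into transcripts from the upstream start (dark) and from downstream starts (orange). The orange part of Mbp shrinks to 1.52 FPKM in knockout AngII replicate 2 while the dark part stays at 8.36 FPKM, and for Pmp22 the dark part spans 5.22 to 125 FPKM.

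At Pmp22 the swings lay in 1 transcript. Pmp22-204, which begins at the upstream start, ranged from 5.22 to 125 FPKM and gave 27.2% to 86.6% of the gene, with low values in every group. The other 4 transcripts begin 2530 bases or more downstream, and their sum stayed between 9.20 and 22.6 FPKM. Pmp22-201, the most abundant of them, had a mean of 12.4 FPKM. The downstream sum was 21.7, 11.8, 21.2, 14.1 and 19.9 FPKM in knockout AngII and 11.1 to 22.6 FPKM in knockout saline aortas, against 9.20 to 14.7 FPKM in wild type AngII and 11.7 to 16.0 FPKM in wild type saline aortas. Over 18 libraries it correlated by r with the Schwann lineage markers (r = 0.64, permutation p = 0.00406, adjusted 0.015; rho = 0.45, permutation p = 0.0614, adjusted 0.159), whereas for Pmp22-204 r was 0.06 (permutation p = 0.824). With the markers of myelinating Schwann cells the downstream sum did not pass (r = 0.42, permutation p = 0.0797, adjusted 0.182, and rho = 0.25). These were among 96 relations computed. Pmp22-204 and Pmp22-201 share most of their sequence, and how reads common to both were divided is not given in the sources used here.

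The 250 bases before each of the first 2 RefSeq starts of Pmp22 are shown because values assigned to its upstream and downstream transcripts varied so differently (RefSeq, GRCm38.p6, plus strand, chr11:63128732-63128981 and chr11:63131207-63131456). The second window ends short of the annotated start of Pmp22-201, at base 63131512, so that RefSeq start is not the start of that transcript. Capitals mark GC boxes (GGGCGG) and CCAAT boxes (CCAAT), searched on both strands, so that they may read CCGCCC or ATTGG. Neither window overlaps an annotated Pmp22 exon.
Pmp22 first start: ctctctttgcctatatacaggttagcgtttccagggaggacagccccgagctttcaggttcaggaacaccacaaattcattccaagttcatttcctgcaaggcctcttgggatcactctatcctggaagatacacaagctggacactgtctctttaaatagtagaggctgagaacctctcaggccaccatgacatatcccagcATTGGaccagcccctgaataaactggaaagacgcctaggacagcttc
Pmp22 second start: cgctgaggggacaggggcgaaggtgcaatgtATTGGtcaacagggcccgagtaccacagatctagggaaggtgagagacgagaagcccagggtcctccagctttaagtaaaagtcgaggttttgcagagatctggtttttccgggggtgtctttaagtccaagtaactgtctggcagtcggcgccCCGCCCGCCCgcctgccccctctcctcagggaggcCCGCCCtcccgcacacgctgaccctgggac
The upstream window holds 48.8% G and C and 1 CCAAT box, at base -47 counted back from the start. The downstream window holds 61.2% G and C, 3 GC boxes at -65, -61 and -30, the first 2 of which overlap, and a CCAAT box at -219. Of 32851 such windows of mouse genes, 32.7% hold a GC box and 33.8% a CCAAT box, so each match by itself is common.

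Sox10 (ENSMUSG00000033006, chr15:79154908-79165240, minus strand) encodes the transcription factor of neural crest and Schwann cells that switches on myelin genes. It stood at 16.3, 1.35, 9.95, 3.43 and 17.6 FPKM in knockout AngII, 6.27, 10.8, 6.36, 14.7 and 19.3 FPKM in knockout saline, 8.22, 7.49, 5.83, 8.17 and 8.12 FPKM in wild type AngII and 8.73, 6.35, 10.6, 6.63 and 6.01 FPKM in wild type saline aortas. Knockout AngII replicates 2 and 4 were the lowest of the 20, and the 5 highest were knockout libraries too, while the 10 wild type aortas lay within 1.81-fold. Under AngII the mean was 9.73 ± 7.33 FPKM in knockout and 7.57 ± 1.01 FPKM in wild type aortas (SD, n = 5 each), a log2 difference of -0.06 ± 0.45. With those 2 left out it was 0.84 with an adjusted p of 0.124 in limma.

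S100b (ENSMUSG00000033208, chr10:76253853-76261159, plus strand) encodes a calcium-binding protein used as a Schwann cell marker that fat cells also make. It stood at 16.0, 17.5, 11.7, 7.99 and 16.5 FPKM in knockout AngII, 5.20, 13.9, 3.01, 12.5 and 14.5 FPKM in knockout saline, 14.2, 12.7, 14.2, 17.4 and 9.15 FPKM in wild type AngII and 12.8, 12.9, 11.1, 6.37 and 12.9 FPKM in wild type saline aortas. Its highest value fell in knockout AngII replicate 2, where Sox10 was lowest. The mean in knockout aortas was 13.9 ± 3.98 FPKM under AngII and 9.80 ± 5.31 FPKM under saline (SD, n = 5 each), a log2 difference of 0.61 ± 0.33 with a limma adjusted p of 0.991. Over all 20 libraries S100b correlated with the adipocyte markers (r = 0.69, permutation p = 0.00166, adjusted 0.00693), but less by rank (rho = 0.41, permutation p = 0.0772) and without the 2 libraries farthest from the median (r = 0.25). Against the B and T cell markers r was -0.61 (permutation p = 0.00412, adjusted 0.0158) and rho -0.76.

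Of 12 markers of the Schwann lineage and of nonmyelinating Schwann cells 11 were tested, and 0 were called in any comparison. Their median log2 difference for knockout against wild type was 0.41 under saline, with 8 of 11 higher, and 0.22 under AngII, again with 8 of 11 higher, against -0.04 and -0.10 over all genes. For AngII against saline it was -0.06 in knockout and -0.01 in wild type aortas, against -0.06 and 0.02 over all genes. Without knockout AngII replicates 2 and 4 it turned to 0.67 for AngII against saline in knockout and was 0.77 for knockout against wild type under AngII. Ngfr, the low-affinity neurotrophin receptor, which sympathetic neurons also make, stood at 0.548 and 4.76 FPKM in knockout AngII replicates 2 and 4, against 31.1 to 154 FPKM in the other 18 libraries. Cdh19, a cadherin of Schwann cells and their precursors, stood at 2.11 and 6.71 FPKM in those 2 libraries and at 4.63 to 23.7 FPKM in the others. Not every marker of the list was low there. Matn2 stood at 14.5 and 30.4 FPKM against 21.8 to 52.3 FPKM in the others. Ptprz1 stood at 7.74 and 11.9 FPKM against 1.78 to 11.3 FPKM, and Scn7a at 4.75 and 0.145 FPKM against 0.00383 to 8.57 FPKM. Without knockout AngII replicates 2 and 4, 2.38% of all genes tested were called for knockout against wild type under AngII in limma. They included 3 of the 11 (Cdh19, Erbb3 and L1cam), with log2 differences of 1.56, 0.97 and 1.33, and 2 of the 15 tested myelinating Schwann cell markers, among them Drp2 with 0.87, all higher in knockout aortas and with adjusted p-values of 0.0319 to 0.0431. These were named after their values were seen, and the libraries left out were the lowest of the knockout group.

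The sympathetic genes were the most abundant of the 8 per length of transcript and the most variable. Th (ENSMUSG00000000214, chr7:142892752-142931128, minus strand) encodes the first and rate-limiting enzyme of noradrenaline synthesis. It stood at 357, 0, 59.1, 4.94 and 264 FPKM in knockout AngII aortas and at 78.1, 139.6, 53.9, 235 and 285 FPKM in knockout saline aortas. It stood at 98.4, 106, 65.1, 151 and 141 FPKM in wild type AngII aortas and at 168, 110.2, 116, 58.5 and 79.5 FPKM in wild type saline aortas. The knockout AngII group holds the highest and the 2 lowest values of the 20, and all groups overlap. The values of replicates 2 and 4 corresponded to 0 and 670 reads, where 0 reads allow up to 0.0218 FPKM by counting error alone (3 reads).

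Dbh (ENSMUSG00000000889, chr2:27165233-27183200, plus strand) encodes the enzyme that turns dopamine into noradrenaline. It stood at 424, 0.146, 242, 6.82 and 328 FPKM in knockout AngII, 107, 175, 83.1, 304 and 418 FPKM in knockout saline, 122, 123, 90.9, 179.7 and 179 FPKM in wild type AngII and 222, 142, 155, 70.0 and 95.6 FPKM in wild type saline aortas. The 2 low knockout AngII values came from 28 and 1269 reads, and the other 3 knockout AngII aortas lay above every wild type aorta.

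Npy (ENSMUSG00000029819, chr6:49822710-49829507, plus strand) encodes the peptide transmitter. It stood at 736, 0.141, 301, 9.69 and 462 FPKM in knockout AngII, 123, 275, 116, 423 and 554 FPKM in knockout saline, 251, 262, 94.7, 262 and 242 FPKM in wild type AngII and 298, 201, 246, 118 and 159 FPKM in wild type saline aortas. The order of the libraries is nearly that of Dbh, and replicates 2 and 4 of the knockout AngII group, with 6 and 407 reads, again stand alone at the bottom.

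For AngII against saline in knockout aortas the log2 differences were -2.05 ± 1.14 for Th, -1.88 ± 1.19 for Dbh and -1.91 ± 1.26 for Npy (limma, each adjusted p 0.991), and the exact permutation p-values were 0.325, 0.405 and 0.397. Without knockout AngII replicates 2 and 4 they were 0.43, 0.82 and 0.92, so the sign rests on those 2 libraries. For knockout against wild type under AngII they were -1.76 ± 1.14, -1.45 ± 1.19 and -1.67 ± 1.26 (adjusted p 0.443, 0.558 and 0.521 in limma), and 0.72, 1.26 and 1.16 without the 2 libraries. Under saline, knockout against wild type gave 0.39 ± 1.14, 0.52 ± 1.19 and 0.35 ± 1.26. In wild type aortas AngII against saline gave 0.11, 0.08 and 0.10, each with an adjusted p of 1.00. Each SE pools the spread of all 4 groups, so knockout AngII replicates 2 and 4 also widen it where that group is not compared. A fit without them was kept only for comparisons that include knockout AngII aortas. In it the SE of Dbh for knockout against wild type under AngII was 0.47, against 1.19 with all libraries. In bulk tissue, fewer nerve cells and less RNA per cell cannot be told apart.

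**Figure D3:**
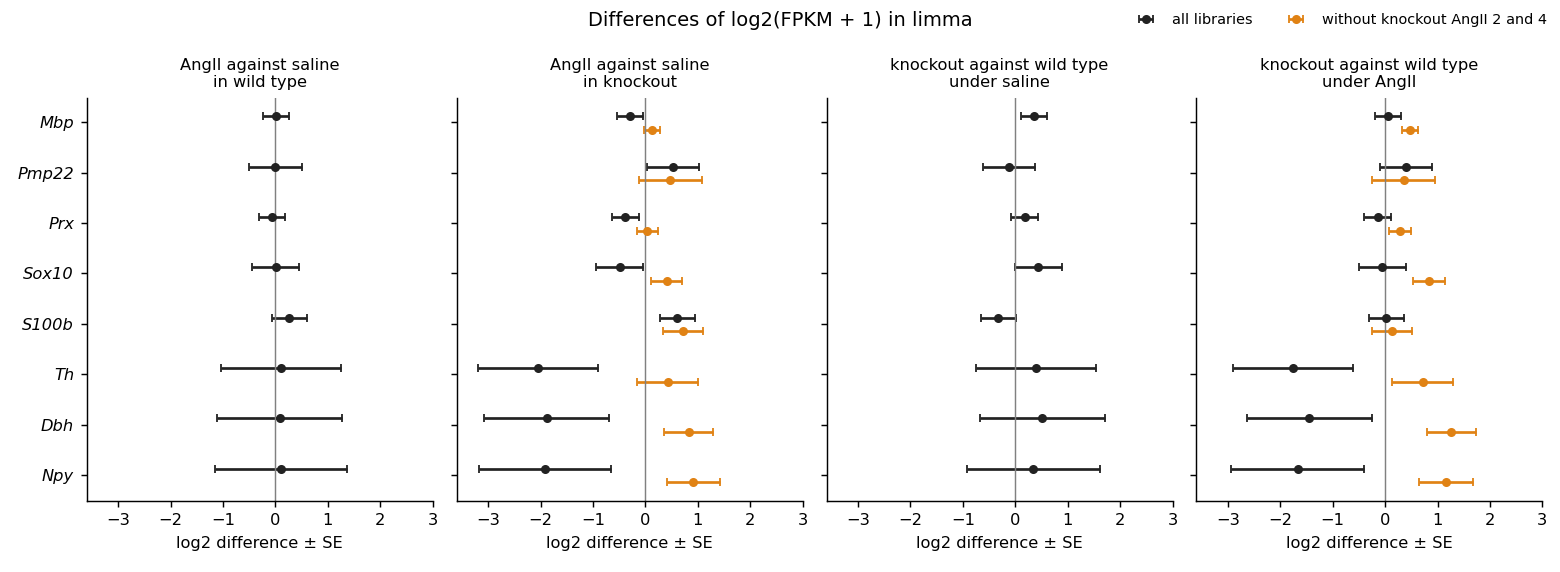
Log2 differences of log2(FPKM + 1) with their SE for the 8 genes in 4 comparisons, from all 20 libraries (black) and without knockout AngII replicates 2 and 4 (orange). In the comparisons with knockout AngII aortas the black points of Th, Dbh and Npy lie between -1.45 and -2.05 and the orange points to the right of 0.

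All 14 markers of sympathetic neurons were tested and 0 were called in any comparison. For AngII against saline in knockout aortas 13 of 14 were lower, with a median log2 difference of -1.05 against -0.06 over all genes, and for knockout against wild type under AngII 14 of 14 were lower, with a median of -0.79 against -0.10. These medians were, without knockout AngII replicates 2 and 4, 0.78 and 1.08, again with 0 called. Sympathetic markers moved together from library to library, as Ddc did with Dbh (r = 1.00 over 20), so such counts are not of independent results. Ddc stood at 0.145 and 4.12 FPKM in knockout AngII replicates 2 and 4, against 38.4 to 221 FPKM in the other 18 libraries. Slc18a2, the vesicular monoamine transporter, stood at 0.987 and 3.09 FPKM against 16.8 to 126 FPKM. Cyb561, a membrane cytochrome of secretory vesicles found in many tissues, stood at 13.0 and 13.5 FPKM against 19.0 to 127 FPKM.

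General neuronal genes showed the same 2 libraries. Snap25, a synaptic membrane fusion protein, stood at 0.0503 and 3.70 FPKM in knockout AngII replicates 2 and 4 against 27.7 to 251 FPKM in the other 18, and Prph, an intermediate filament of peripheral neurons, at 0.352 and 2.98 FPKM against 54.3 to 311 FPKM. All 16 neuronal markers were tested and 0 were called in any comparison. Their median log2 difference for AngII against saline in knockout aortas was -1.14, against -0.06 over all genes, and it turned to 0.82 without the 2 libraries. For knockout against wild type under AngII it was -0.48, against -0.10 over all genes, and turned to 1.2 without them. Under saline it was 0.56, with 16 of 16 higher, against -0.04 over all genes, and the smallest adjusted p in limma was 0.871. Neuronal markers moved together from library to library, as Tubb3 did with Dbh (r = 0.99 over 20), so 16 of 16 is not a count of independent results. In knockout AngII replicates 2 and 4 Ntn1, a guidance factor, was not low, at 35.7 and 26.4 FPKM against 4.83 to 32.9 FPKM. Neither was Ntf3, a neurotrophin, at 7.66 and 9.33 FPKM against 1.39 to 8.85 FPKM. Of 12 growth and guidance factors 9 were tested and 0 called.

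The windows before the RefSeq starts of Th and Npy are shown because these genes moved together from library to library (GRCm38.p6, chr7:142899996-142900245, minus strand, and chr6:49822460-49822709, plus strand). Capitals mark GC boxes, CCAAT boxes and the cAMP response element (TGACGTCA), on either strand. The last 19 bases of the Th window lie in the first exon of a GENCODE transcript of Th, and the Npy window lies outside the exons of Npy.
Th: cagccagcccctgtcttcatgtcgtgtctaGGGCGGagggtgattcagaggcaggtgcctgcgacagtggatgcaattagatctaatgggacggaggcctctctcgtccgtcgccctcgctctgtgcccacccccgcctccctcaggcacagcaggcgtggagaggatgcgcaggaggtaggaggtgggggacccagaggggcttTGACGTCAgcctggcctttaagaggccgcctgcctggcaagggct
Npy: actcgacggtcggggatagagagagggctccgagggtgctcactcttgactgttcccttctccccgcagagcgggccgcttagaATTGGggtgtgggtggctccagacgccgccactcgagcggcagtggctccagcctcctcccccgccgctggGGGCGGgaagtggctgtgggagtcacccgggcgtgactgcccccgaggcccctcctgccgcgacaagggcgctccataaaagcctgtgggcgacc
The Th window holds a cAMP response element at -45, a motif found in 1.55% of the 32851 windows, and a GC box at -220. The Npy window holds a GC box at -95 and a CCAAT box at -166 and no cAMP response element of these letters. The pair therefore shared only the GC box among the motifs searched.

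Knockout AngII replicates 2 and 4 lay apart in the balance of myelin and sympathetic genes. They had been singled out for low sympathetic genes, so this was largely fixed in advance. Each library's myelin level was taken as the mean log2(FPKM + 1) of Mbp, Pmp22 and Prx and its sympathetic level as that of Th, Dbh and Npy. Myelin minus sympathetic level was 3.55 in knockout AngII replicate 2 and 1.53 in replicate 4, and it lay between -4.26 and -1.66 in the other 18. In replicate 4 Mbp and Pmp22 lay inside the range of the other 18, at 24.8 and 90.7 FPKM, while Prx lay just below it, at 4.08 FPKM against 4.41 to 9.97 FPKM, and Sox10 further below, at 3.43 FPKM against 5.83 to 19.3 FPKM. Th, Dbh and Npy stood at 4.94, 6.82 and 9.69 FPKM. In replicate 2 both sides were low, apart from Pmp22 and the upstream transcripts of Mbp. By group the difference averaged -1.07 ± 3.38 in knockout AngII, -2.96 ± 0.95 in knockout saline, -2.80 ± 0.43 in wild type AngII and -2.68 ± 0.68 in wild type saline aortas (SD, n = 5 each). AngII minus saline was 1.90 in knockout aortas, and -0.51 without replicates 2 and 4, against -0.11 in wild type aortas. No test was made of this score.

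**Figure D4:**
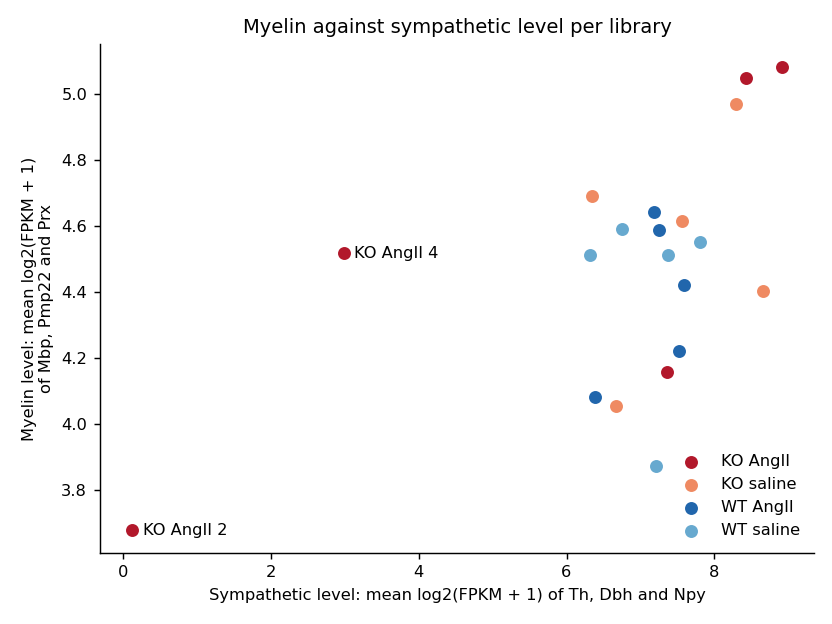
Myelin level against sympathetic level of each library, both as means of log2(FPKM + 1) over 3 genes. Of the 20 points, 18 lie at a sympathetic level above 6, and knockout AngII replicates 4 and 2 lie far to the left at 2.99 and 0.13.

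Over the 18 other libraries, Dbh went with Npy (r = 0.95, rho = 0.94, each permutation p 1e-05, the smallest that 100000 permutations can give) and with Th (r = 0.88, permutation p = 2e-05; rho = 0.86). Sox10 went with Dbh almost as closely (r = 0.91, permutation p = 1e-05; rho = 0.85, permutation p = 2e-05). The adjusted p-values of these relations over 28 pairs were at most 0.00021. Prx went with Sox10 (r = 0.75, permutation p = 0.00042, adjusted 0.00168; rho = 0.73) and less with Dbh (r = 0.61, permutation p = 0.0065, adjusted 0.016; rho = 0.61). Mbp went with Sox10 (r = 0.68, permutation p = 0.00209, adjusted 0.00731; rho = 0.60), and with Dbh by r (r = 0.53, permutation p = 0.0232, adjusted 0.0433) but not by rank (rho = 0.46, permutation p = 0.0567, adjusted 0.0992). Its relations to Npy (r = 0.46, permutation p = 0.0572, adjusted 0.089) and to Th did not pass (r = 0.45, permutation p = 0.0645, adjusted 0.0903; rho = 0.33, permutation p = 0.179). With all 20 libraries r of Mbp and Th was 0.73 (permutation p = 0.00295, adjusted 0.00551) and rho 0.43 (permutation p = 0.0587), and r was 0.28 without the 2 libraries farthest from the median of Mbp. The relation of Mbp to Th therefore depended on which libraries were included. Over the 18 libraries the downstream sum of Mbp went with the level of sympathetic neuron markers by r (r = 0.61, permutation p = 0.00792, adjusted 0.0262). By rank it did not pass (rho = 0.49, permutation p = 0.0422, adjusted 0.127). For the upstream sum of Mbp r was -0.27 (permutation p = 0.274). No relation of Pmp22 to the other 7 genes passed (r between 0.08 and 0.31 over 18 libraries, smallest permutation p 0.203).

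**Figure D5:**
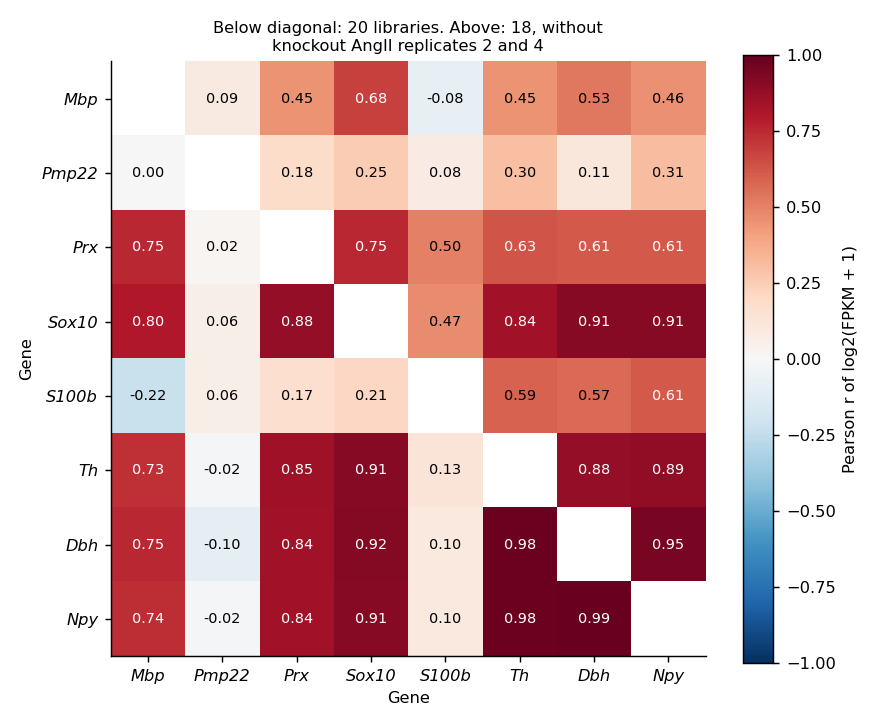
Pearson r of log2(FPKM + 1) for each pair of the 8 genes, over all 20 libraries below the diagonal and over 18 above it. Th, Dbh, Npy and Sox10 form a block of r from 0.84 to 0.95 above the diagonal, and the Pmp22 row and column are pale.

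The genes whose pattern over the 20 libraries was most like that of each member, by Pearson r, differed in kind. For Dbh they included Ddc and Tubb3, a neuronal tubulin, with r of 1.00 and 0.99, and for Th they were Npy, Tubb3 and Dbh, with r of 0.98 each. For Npy they were Dbh, Ddc and Tubb3. For Sox10 they were Gpr37l1, a receptor of glia, Nsg1, a neuronal endosome protein, and Lrrc3, with r of 0.97. Mbp was most like Ptn, a secreted growth factor, Adam23 and Gpm6b, a membrane glycoprotein of glia and neurons, with r of 0.90, 0.89 and 0.89, and Prx most like Plekhb1, Cadm4, an adhesion protein of Schwann cells, and Sfrp5, with r of 0.90 to 0.91. For S100b they were Tmem246, Smpd1, a lysosomal sphingomyelinase, and Msrb2, with r of 0.87 to 0.89, and for Pmp22 they were Rpl21, a ribosomal protein gene, Cluap1 and Cnep1r1, with r of 0.68 to 0.72. These correlations were the highest of 15010 genes by choice and carry no test.

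Th over Dbh lay between 0.648 and 0.862 in 17 libraries and at 0.724 in knockout AngII replicate 4. It was 0.244 in knockout AngII replicate 3, where Dbh stood at 242 FPKM and Th at 59.1 FPKM, and the cause was not tested. Npy over Dbh lay between 1.04 and 2.13 in the 18 libraries, and was 1.42 in knockout AngII replicate 4 and 0.966 in replicate 2. In replicate 4, both ratios lay inside the range of the other libraries although Th, Dbh and Npy each stood far below theirs.

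Markers of other sources were measured beside these genes. The adrenal medulla also makes Th and Dbh, and its defining enzyme Pnmt, which turns noradrenaline into adrenaline, did not exceed 1.31 FPKM in any library. The sum of 5 adrenal medulla markers was nonetheless 1.03 and 6.03 FPKM in knockout AngII replicates 2 and 4, against 19.5 to 117 FPKM in the other 18. Most of it came from Chga and Chgb, proteins of secretory granules that sympathetic neurons also make, at up to 62.9 and 56.8 FPKM. Slc18a1, a monoamine transporter of chromaffin cells, stood at no more than 3.75 FPKM and was called higher for knockout against wild type under AngII without the 2 libraries (limma adjusted p 0.0431). Mog and the other 5 oligodendrocyte markers, which would accompany Mbp from the central nervous system, summed to at most 1.27 FPKM. The 5 melanocyte markers, cells that also use Sox10, summed to at most 3.79 FPKM. The sum of 5 cholinergic and nitrergic markers was 0.189 and 0.355 FPKM in knockout AngII replicates 2 and 4, against 0.36 to 9.88 FPKM in the other 18. In that list Chat, the enzyme of acetylcholine synthesis, reached at most 0.228 FPKM and Vip, a peptide transmitter, 7.42 FPKM. The sum of 11 sensory neuron markers, of which 2 were tested, was 1.11 and 2.71 FPKM in these 2 libraries, against 12.5 to 50.3 FPKM. Most of that gap lay in Avil, an actin-binding protein, at 0 and 1.10 FPKM against 9.65 to 48.3 FPKM. The sodium channel gene Scn9a stood at 0.00541 and 0.177 FPKM against 0.175 to 9.98 FPKM. Calca, a sensory peptide, stood at 0.257 and 0.366 FPKM against 0.336 to 1.09 FPKM. Trpv1, at 0.317 and 0.701 FPKM, lay inside the range of the others, 0.1625 to 1.06 FPKM, so the sum does not stand for every marker in it. The part of these cells in the sympathetic values was not tested. The sum of 8 adrenal cortex markers was 1.43 and 1.64 FPKM in knockout AngII replicates 2 and 4, and 1.11 to 175 FPKM in the others. It reached 175 FPKM in wild type AngII and 84.9 FPKM in wild type saline aortas, but only 1.80 FPKM in knockout AngII and 5.34 FPKM in knockout saline aortas. Star, of this list, was highest in wild type AngII replicate 5, at 36.0 FPKM, and next in wild type saline replicate 1, at 16.0 FPKM. Dbh stood there at 179 and 222 FPKM, the latter its highest wild type value. The part of adrenal tissue in the values was not tested.

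Other tissues also varied among libraries. The sum of 9 skeletal muscle markers was 14.0 and 298 FPKM in knockout AngII replicates 2 and 4, against 3.86 to 6310 FPKM in the other 18. The sum of 7 B and T cell markers was 5.00 and 253 FPKM, against 5.77 to 489 FPKM, so replicate 2 was the lowest of the 20. The sum of 9 adipocyte markers was 9080 and 9220 FPKM against 6960 to 13200 FPKM, that of 6 smooth muscle markers 3730 and 4020 FPKM against 1120 to 6290 FPKM, and that of 4 endothelial markers 176 and 224 FPKM against 163 to 293 FPKM. Slc2a1, Itgb4 and Cldn1 of the perineurium, the sheath of a nerve bundle, summed to 10.9 and 25.1 FPKM against 19.0 to 32.8 FPKM, lowest in replicate 2. Over the 18 libraries, the B and T cell level ran against Npy (r = -0.73, permutation p = 0.00061, adjusted 0.00308; rho = -0.70, permutation p = 0.00157, adjusted 0.0106) and against Sox10 (r = -0.76, permutation p = 0.00072, adjusted 0.00346; rho = -0.60, permutation p = 0.0099, adjusted 0.0396). Over all 20 libraries r was 0.03 for Npy (permutation p = 0.906; rho = -0.47, adjusted permutation p = 0.12) and -0.24 for Sox10 (permutation p = 0.314; rho = -0.39), so neither relation passed with the 2 libraries in. How far the tissue carried with each vessel bears on the nerve genes was not tested.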

How the data were processed

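Ribosomal RNA was removed from total RNA of abdominal aorta before library construction, per the labels' protocols. Per the submitters' processing notes, the build was mm10 and limma is listed, with no version. No aligner, assembler or counter is named in the labels or file headers. The values, deposited as 1 table per library with 126719 transcript models, were read as FPKM. The labels name no unit. Multiplied by transcript length, 99.5% to 99.6% of low values came out whole to within 0.1 read. FPKM divides by length and by the library total, so a value also depends on all other transcripts of the library. Reads were recovered from these steps, and intervals and limits from them cover counting error only.

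GENCODE M21 gave each Ensembl transcript its gene (109913 matched, 169 not) and FPKM summed per gene. Unannotated models, 10.6% to 12.9% of the FPKM of a library, were left out. All 20 libraries were fitted with a mean per group on log2(FPKM + 1) in limma 3.58.1 under R 4.3.3 (lmFit, eBayes with trend and robust), two-sided, with Benjamini-Hochberg adjustment over 15010 genes. The fold change is on that scale and understates the change of low genes. Single genes were also compared with exact permutation tests over 252 arrangements, and correlations with 100000 permutations, in Python 3.11.15 (scipy 1.17.1, numpy 2.4.6, pandas 2.3.3), with figures from matplotlib 3.10.9. The limma step was tested on simulated data. The labels give no batch. They number the libraries within each group and do not say whether equal numbers pair the mice.

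The members and the 17 marker lists were chosen with earlier results of these data known. Text names the 8 members, up to 4 members of each list with the highest mean FPKM, the 3 most alike genes of each member, and the 2 most abundant transcripts of genes with several that the text splits. A few other markers, such as Pnmt, Mog, Chat, Erbb3, Ptprz1 and Scn7a, were added after their values were seen. Some genes that this rule names are not reported here. Alternatives were another pseudocount, no filter, a filter at 5 FPKM, quantile normalization, scaling in the manner of TMM, limma-voom on the recovered reads, plain eBayes, protein-coding transcripts only, a fit of only the groups compared, replicate number as a block and leaving out each library. Leaving out knockout AngII replicates 2 and 4 together was added after seeing the data.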

Additional observations from a re-analysis of the deposited data

Results flagged for a closer look

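In 52 groups of 5 libraries (13 quantities in 4 groups), the gap of the lowest or highest library to its neighbour, as a share of the group's range on log2(FPKM + 1), passed Dixon's critical value of 0.71 in 4. Chance passes about 1 in 20 such groups. In wild type AngII aortas, replicate 3 was the lowest for Npy, with a share of 0.922 (94.7 FPKM against 242 to 262 FPKM), and for Sox10, with a share of 0.722 (5.83 FPKM against 7.49 to 8.22 FPKM). It was also the library with the fewest implied reads, 68700000, and the part of this in the values was not tested. In wild type saline aortas, replicate 4 was the lowest for S100b, with a share of 0.777 (6.37 FPKM against 11.1 to 12.9 FPKM). Replicate 2 of the same group was the lowest for the upstream transcript of Pmp22, with a share of 0.719 (5.22 FPKM against 38.7 to 80.8 FPKM). In knockout AngII aortas, replicate 2 did not pass for Th, Dbh and Npy, since replicate 4 was low as well.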

How the results depend on the processing

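None of the 40 differences of a member (8 genes in 5 comparisons) passed limma's adjusted threshold under any alternative, the lowest adjusted p being 0.0941. Of 896 alternative values 62 had the opposite sign, over 26 of the differences, and 37 of these came from leaving out 1 library. Without knockout AngII replicates 2 and 4, AngII against saline in knockout turned to 0.13 for Mbp, 0.039 for Prx, 0.41 for Sox10, 0.43 for Th, 0.82 for Dbh and 0.92 for Npy. Knockout against wild type under AngII turned to 0.28 for Prx, 0.84 for Sox10, 0.72 for Th, 1.26 for Dbh and 1.16 for Npy, and the interaction to 0.12 for Mbp, 0.10 for Prx, 0.40 for Sox10, 0.32 for Th, 0.74 for Dbh and 0.81 for Npy. The correlation of Mbp with Th was then 0.45, and 0.28 without the 2 libraries farthest from the median of Mbp. In AngII against saline in wild type, quantile normalization gave -0.021 for Mbp and -0.00962 for Sox10, TMM-like scaling -0.00554 for Sox10, limma-voom -0.054 for Mbp and 0.016 for Pmp22, and a pseudocount of 0.1 gave 0.00308 for Pmp22. In knockout against wild type under AngII, Sox10 was 0.074 with quantile normalization and 0.015 with TMM-like scaling. The cause of these turns of sign near 0 was not tested.

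Leaving out 1 library at a time, AngII against saline in wild type ran from -0.129 to 0.284 for Dbh, -0.044 to 0.076 for Mbp, -0.075 to 0.387 for Npy, -0.421 to 0.251 for Pmp22, -0.067 to 0.114 for Sox10 and -0.085 to 0.291 for Th. In knockout it ran from -0.435 to 0.027 for Mbp. Knockout against wild type ran from -0.546 to 0.103 for Pmp22 under saline, and under AngII from -0.089 to 0.373 for Mbp, -0.337 to 0.128 for Prx, -0.102 to 0.191 for S100b and -0.353 to 0.393 for Sox10. The interaction ran from -0.45 to 0.012 for Mbp.

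Counts of called genes moved more. Without a filter 11 genes were called in AngII against saline in wild type and 1 in the interaction. Without knockout AngII replicates 2 and 4 the count was 2 in AngII against saline in knockout. Knockout against wild type under saline gave 2 genes, 20 without a filter and 1 with the 5 FPKM filter, quantile normalization, the 2 groups alone or the replicate block. Under AngII it gave 275, but 1 with the 2 groups alone, 70 with the replicate block and 147 with protein-coding transcripts only. Of the 275, 59 were higher in knockout, against 250 of 374 with quantile normalization, which moved the median of all genes to 0.03 from -0.10, 176 of 304 with TMM-like scaling and 239 of 365 with limma-voom. Leaving out 1 library gave 0 to 1, 0 to 4, 1 to 4 and 9 to 484 calls in AngII against saline in wild type and in knockout and knockout against wild type under saline and under AngII; 9 came without knockout AngII replicate 3 and 484 without wild type AngII replicate 3. Of 30 same-numbered pairs of libraries 10 had deviations correlated above 0.1 (range -0.523 to 0.412). No pairs of unlike number were set beside them, so whether replicate numbers pair the mice cannot be told from these values. Every member but Th, Dbh and Npy had at least 269 reads in every library, while those 3 had 0, 28 and 6 in knockout AngII replicate 2.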

Other observations

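Snap25 over Dbh, a synaptic gene over an enzyme gene of the same neurons, lay between 0.345 and 0.593 in knockout AngII, 0.395 and 0.548 in knockout saline, 0.342 and 0.416 in wild type AngII and 0.331 and 0.429 in wild type saline aortas. The groups overlap. Under AngII the overlap of knockout and wild type rests on knockout AngII replicate 2, at 0.345. There Snap25 stood at 0.0503 FPKM and Dbh at 0.146 FPKM (28 reads). In knockout AngII replicates 1, 3, 4 and 5 the ratio was 0.593, 0.536, 0.543 and 0.549, above every wild type library. The ratio was picked after its values were seen, and none of 8 exact permutation tests of such ratios passed the adjustment (smallest adjusted p 0.106).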
